A study of Mus musculus with 2 samples.

Results

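The 60 genes described here encode machinery of mitosis other than the mitotic kinesins: cyclins and kinases of mitotic entry, the spindle checkpoint, centromere and kinetochore proteins, spindle and condensin proteins, and factors of anaphase and cytokinesis. They were taken by symbol from a written list, and all 60 were found among the 15953 genes of the deposited expression table. Cenpe is on the list as a kinetochore protein although it is itself a kinesin motor. The cells were mouse neural stem cells grown in suspension culture, with 1 library labelled wild type and 1 labelled Hikeshi cKO (conditional knockout). Hikeshi carries HSP70 chaperones into the nucleus. The sources used here state neither the number of animals behind each library, nor the Cre driver, nor the part of the gene removed.

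In mitosis the duplicated chromosomes are condensed, attached through their kinetochores to the spindle and pulled apart. CDK1 bound to a B-type cyclin starts the process, the spindle checkpoint delays it until the kinetochores are attached, and the anaphase-promoting complex ends it by marking cyclin B and securin for destruction. Most of these genes are transcribed in waves, low in resting cells and high in G2 and M phase, by the B-MYB, MuvB and FOXM1 proteins acting through the CHR element of their promoters, together with NF-Y at CCAAT boxes. In a bulk sample their level therefore follows the share of cycling cells as well as the level in each cell, and fewer cells with the transcript and less RNA per cell cannot be told apart.

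The libraries held 18912683 reads (cKO) and 18839079 reads (wild type). Values below are CPM, reads per 1000000 reads counted. Ratios are cKO over wild type, each with a 95% interval that covers counting error between these 2 libraries only. A gene counted as 1.5-fold apart had to reach that fold after 1 CPM was added to both values, and the log2 differences are on that scale. With 1 library per group there is no replicate check and no test between genotypes. Hikeshi itself had 640 reads in the cKO library against 718 (ratio 0.888, 0.797 to 0.989), so its level does not settle the genotype. The Y-linked genes Eif2s3y, Ddx3y, Kdm5d and Uty had 305 to 1265 reads in the cKO library and 0 or 1 in the other, so the sex of the source cells and the genotype label cannot be told apart in any value below.

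The promoters of 50 of the 60 genes were in the RefSeq table of GRCm38.p6. Each window ran from 250 bases before to 50 after a transcription start. Stretches of the 160 bases before the start are shown for 6 genes: Ccnb1, Cdk1, Cdc20 and Top2a, which hold both kinds of word in them, Hmmr, which repeats CCAAT, and Cenpe, the gene with the highest ratio. Capitals mark the CCAAT word, which reads as ATTGG on the other strand, and the words of the CHR element. The most common of these is TTTGAA, which appears as TTCAAA when it lies on the opposite strand. The other 2 searched were TTTAAA and, rarer, TTCGAA.
Ccnb1, chr13:100786487-100786646, minus strand: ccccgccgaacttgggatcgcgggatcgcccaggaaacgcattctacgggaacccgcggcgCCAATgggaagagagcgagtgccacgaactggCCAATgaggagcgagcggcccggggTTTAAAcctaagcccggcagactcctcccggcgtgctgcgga
Cdk1, chr10:69352913-69353072, minus strand: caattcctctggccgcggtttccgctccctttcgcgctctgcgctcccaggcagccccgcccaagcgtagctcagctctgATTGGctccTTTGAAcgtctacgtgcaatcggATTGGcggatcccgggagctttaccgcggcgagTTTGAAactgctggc
Cdc20, chr4:118437344-118437503, minus strand: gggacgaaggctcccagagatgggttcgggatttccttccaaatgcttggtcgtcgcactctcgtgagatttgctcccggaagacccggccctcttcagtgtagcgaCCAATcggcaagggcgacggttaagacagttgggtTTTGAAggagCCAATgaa
Hmmr, chr11:40733438-40733597, minus strand: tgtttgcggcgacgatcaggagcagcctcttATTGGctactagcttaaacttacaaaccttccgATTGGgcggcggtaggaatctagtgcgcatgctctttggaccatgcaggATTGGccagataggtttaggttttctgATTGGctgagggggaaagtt
Top2a, chr11:99024190-99024349, minus strand: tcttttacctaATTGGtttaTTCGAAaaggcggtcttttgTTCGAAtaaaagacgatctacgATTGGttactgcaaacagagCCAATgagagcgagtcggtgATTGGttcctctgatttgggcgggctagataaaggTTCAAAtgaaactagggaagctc
Cenpe, chr3:135212403-135212562, plus strand: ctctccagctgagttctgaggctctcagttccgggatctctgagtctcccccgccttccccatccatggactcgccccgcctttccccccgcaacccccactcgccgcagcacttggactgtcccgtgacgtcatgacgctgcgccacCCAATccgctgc

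Both words were common in these promoters. At least 1 CHR word, on either strand, stood in the most upstream 300-base window of 39 of the 50 genes (78.0%), against 20.3% of the 10102 kept genes with a window and 29.1% of all 27025 genes of the promoter table. CCAAT stood in 39 of 50 as well (78.0%), against 39.5% and 38.0%. Both together were in 34 of 50 (68.0%), against 8.60% and 11.5%. TTTGAA alone was in 62.0% of the 50 promoters and 11.3% of the kept genes. Of the CHR words, TTTAAA and TTCGAA read the same on both strands.

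The positions of the words are counted here in bases before the start. In Ccnb1 CCAAT began 99 and 67 bases before the start and a CHR word 42 before it. In Cdk1 ATTGG began at 80 and 48 bases and TTTGAA at 71 and 15. A match is only a string of letters, and no binding was measured here. The median log2 difference between the libraries was 0.50 in the 39 genes with a CHR word and 0.48 in the 11 without, and 14 of the 39 against 2 of the 11 were at least 1.5-fold higher. For CCAAT the medians were 0.49 with the word and 0.50 without it, and 13 of 39 against 3 of 11 genes were at least 1.5-fold higher. Of all 12618 genes kept, 4.22% were at least 1.5-fold higher, a share not computed by word. Neither difference was tested. No window of Ccna2, Cdc25c, Foxm1, Aurkb, Incenp, Zwilch, Spc24, Tpx2, Dlgap5 or Smc4 was used.

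Nearly the whole set was higher in the cKO library. Of the 60 genes, 59 lay above 0 on the log2 scale and 1, Pttg1, below, where 47.8% of all 12618 genes kept lay above 0. At least 1.5-fold higher were 18 of 60 (background 4.22% of genes kept), and 0 were at least 1.5-fold lower (background 10.2%). Only Cenpe and Knl1 were at least 2-fold higher (background 1.25%), so the shift was broad and modest. The median log2 difference was 0.48, against -0.02 over all genes kept. Together the 60 genes took 0.563% of the reads of the cKO library and 0.410% of the reads of the wild-type library, a ratio of 1.37 (1.36 to 1.38).

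**Figure D1:**
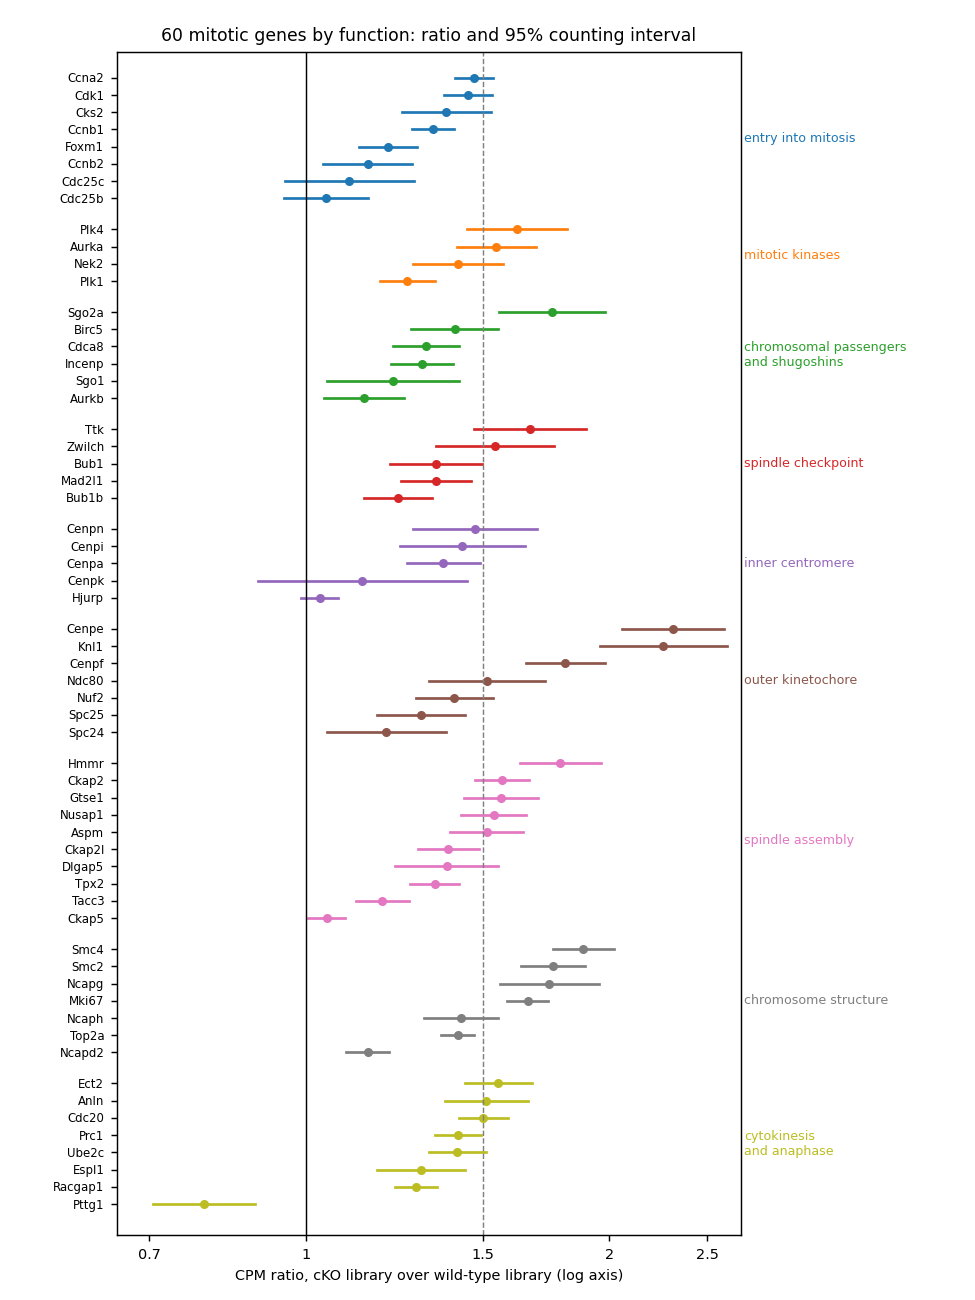
Ratio of CPM, cKO library over wild-type library, for each of the 60 genes, grouped by function (horizontal log axis, points; lines are 95% counting intervals, 1 library per group; the dashed line marks 1.5). All points but Pttg1 lie right of 1, and Cenpe and Knl1 lie beyond 2.

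The genes were well covered, with 134 reads or more in each library, and all 60 passed the filter of 1 CPM in at least 1 library. The counting interval lay wholly above 1 for 55 genes (background 28.1%) and wholly below 1 for Pttg1 (background 31.2%). It included 1 for 4 genes, Cdc25b, Cdc25c, Hjurp and Cenpk, for which no difference was detectable at this depth. The genes did not share 1 ratio: the intervals of 21 lay above the summed ratio of 1.37, those of 13 below it, and 26 included it. The threshold of 1.5-fold cut through a continuum, with Zwilch (0.60) and Aspm (0.59) just inside it on the log2 scale and Anln and Cdc20 (0.58 each) just outside.

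**Figure D2:**
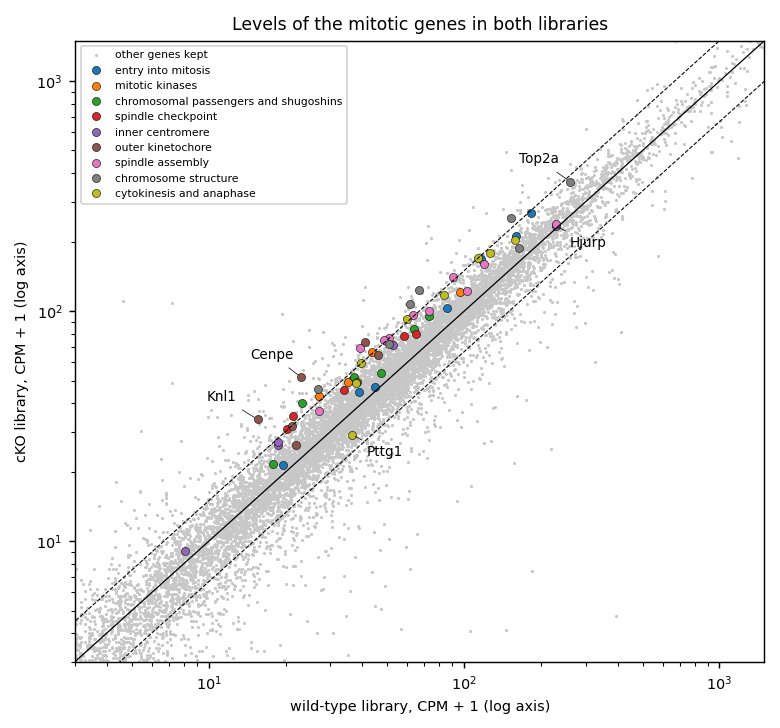
CPM + 1 in the wild-type library (horizontal) and the cKO library (vertical), both log axes, for the 60 genes by function (coloured) and the other genes kept (grey dots); the solid line marks equal levels and the dashed lines 1.5-fold. Most coloured points lie between the solid line and the upper dashed line, and 18 of the 60 lie above the upper dashed line. Pttg1 lies below the solid line, and genes such as Hjurp lie close to it.

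Cyclins and the CDK1 module come first, as the switch into mitosis. All 8 genes of this group lay above 0 and 0 of 8 reached 1.5-fold (median 0.34). Here and for each group below, 47.8% of all genes kept lay above 0 and 4.22% were at least 1.5-fold higher. A count of 0 in a group this small does not set it apart. Ccna2, the cyclin of S and G2 phase, had 5041 reads in the cKO library against 3423, or 267 against 182 CPM (ratio 1.47, 1.40 to 1.53). Cdk1, the mitotic kinase itself, had 3169 against 2178 reads (168 against 116 CPM, ratio 1.45, 1.37 to 1.53). Ccnb1, the main mitotic cyclin, had 4016 against 2994 (212 against 159 CPM, ratio 1.34, 1.27 to 1.40). These 3 genes and Cks2, a small CDK-binding subunit (1.38, 1.246 to 1.52), differed by similar factors. Of the 50-base words of Ccnb1, Cks2 and Ccna2, 42.1%, 29.7% and 15.9% also occur in transcripts of other genes, so their values are less certain.

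The other members of the module were closer to equal. Ccnb2, the second B-type cyclin, had a ratio of 1.15 (1.04 to 1.28). Foxm1, the transcription factor that drives many G2 and M genes, had 1936 against 1599 reads (102 against 84.9 CPM, ratio 1.21, 1.13 to 1.29). The phosphatase genes that remove the inhibitory phosphates from CDK1 differed least. Cdc25b had 864 against 822 reads (45.7 against 43.6 CPM, ratio 1.05, 0.951 to 1.15) and Cdc25c a ratio of 1.10 (0.953 to 1.28).

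All 4 mitotic kinase genes were higher in the cKO library, 2 of them at least 1.5-fold (background 4.22% of genes kept, group median 0.55). Plk4, which starts centriole duplication, had 795 reads against 489 (42.0 against 26.0 CPM, ratio 1.62, 1.45 to 1.82). Aurka, the kinase of centrosome maturation and spindle poles, had 1245 against 803 (65.8 against 42.6 CPM, ratio 1.54, 1.41 to 1.69). Nek2, which separates centrosomes, had a ratio of 1.41 (1.28 to 1.57). Plk1, with roles from entry to cytokinesis, had 2276 against 1798 reads (120 against 95.4 CPM) and the lowest ratio of the group, 1.26 (1.18 to 1.34).

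The chromosomal passenger complex corrects faulty attachments, and its 4 subunit genes were all higher in the cKO library by less than 1.5-fold. Aurkb, its kinase, had 999 reads against 871 (52.8 against 46.2 CPM, ratio 1.14, 1.04 to 1.253). The scaffold gene Incenp (1.304, 1.21 to 1.40), the borealin gene Cdca8 (1.32, 1.22 to 1.42) and the survivin gene Birc5 (1.40, 1.27 to 1.55) had higher ratios than the kinase. Shugoshins protect centromeric cohesin. Sgo1 had a ratio of 1.22 (1.05 to 1.42), while Sgo2a had 739 reads against 420 (39.1 against 22.3 CPM, ratio 1.75, 1.55 to 1.98). Sgo2a was the 1 member of 6 in this group at least 1.5-fold higher (background 4.22% of genes kept, group median 0.38). Of the 50-base words of Sgo2a, 48.3% also occur in transcripts of its neighbour Kctd18 or its copy Sgo2b, so its value is less certain. Kctd18 was lower in the cKO library (345 against 408 reads, ratio 0.842, 0.728 to 0.975).

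The spindle checkpoint holds back anaphase while kinetochores are unattached. All 5 genes were higher in the cKO library and 2 reached 1.5-fold (background 4.22% of genes kept, group median 0.42). Ttk, the MPS1 kinase at the head of the checkpoint, had 641 reads against 383 (33.9 against 20.3 CPM, ratio 1.67, 1.47 to 1.90). Zwilch, a subunit of the RZZ complex at the outer kinetochore, had 561 against 363 (29.7 against 19.3 CPM, ratio 1.54, 1.35 to 1.76). The kinase gene Bub1 (1.35, 1.21 to 1.496) and Mad2l1, which encodes the MAD2 inhibitor of CDC20 (1.35, 1.24 to 1.46), had nearly the same ratio. Bub1b, which encodes BUBR1, had 1489 against 1202 reads (78.7 against 63.8 CPM) and the lowest ratio, 1.23 (1.14 to 1.33).

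At the inner centromere no gene reached 1.5-fold (background 4.22% of genes kept), a count that does not set 5 genes apart. All 5 lay above 0, and their median of 0.45 was close to that of all 60 genes (0.48). Cenpn, which reads the CENP-A nucleosome, had 493 reads against 334 (26.1 against 17.7 CPM, ratio 1.47, 1.28 to 1.69). Cenpi had a ratio of 1.43 (1.24 to 1.65) and the histone variant gene Cenpa 1.37 (1.26 to 1.49). Deposited TPM values of Cenpi were 14.2 against 8.86, a larger ratio of 1.60. Hjurp, the chaperone that loads CENP-A, was by far the most read of the 5 and did not differ detectably, with 4437 reads against 4280 (235 against 227 CPM, ratio 1.03, 0.990 to 1.08). Cenpk, the least read of all 60 genes, had 153 against 134 reads (ratio 1.14, 0.896 to 1.45).

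The outer kinetochore held the genes with the highest ratios. Cenpe (Entrez 229841, chromosome 3, 135212563 to 135273540, GRCm38.p6), the motor that moves chromosomes to the spindle equator, had 960 reads in the cKO library against 414 (50.8 against 22.0 CPM, ratio 2.31, 2.06 to 2.60). Knl1 (Entrez 76464, chromosome 2, 119047119 to 119110497), the scaffold on which the checkpoint kinase BUB1 docks, had 622 against 274 (32.9 against 14.5 CPM, ratio 2.26, 1.96 to 2.62). Cenpf, a large coiled-coil protein of the kinetochore corona, had 1369 against 754 (72.4 against 40.02 CPM, ratio 1.81, 1.65 to 1.98). These 3 of the 7 genes in the group were at least 1.5-fold higher (background 4.22% of genes kept). Their counting intervals lay above those of Spc24 and Spc25.

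The NDC80 complex, which grips the microtubule, differed less. Its namesake Ndc80 had a ratio of 1.51 (1.33 to 1.72), which fell short of 1.5-fold once 1 CPM was added. Nuf2 stood at 1.40 (1.29 to 1.53) and Spc25 at 1.3002 (1.18 to 1.44). Spc24 had 479 reads against 397 (25.3 against 21.1 CPM) and the lowest ratio of the group, 1.20 (1.05 to 1.38). The median of the whole outer kinetochore group was 0.57, and its summed reads gave a ratio of 1.62 (1.55 to 1.68).

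Spindle assembly was the largest group, with 10 of 10 genes above 0 and 5 at least 1.5-fold higher (background 4.22% of genes kept, group median 0.53). Hmmr, a spindle pole protein also known as a hyaluronan receptor, had 1290 reads against 719 (68.2 against 38.2 CPM, ratio 1.79, 1.63 to 1.96). Ckap2, a microtubule stabiliser, had 2645 against 1683 (140 against 89.3 CPM, ratio 1.57, 1.47 to 1.67). Gtse1 had 1406 against 897 (74.3 against 47.6 CPM, ratio 1.56, 1.43 to 1.70). Nusap1, which bundles microtubules near chromatin, had 1801 against 1168 (95.2 against 62.0 CPM, ratio 1.54, 1.43 to 1.65). Aspm, the spindle pole gene mutated in a common form of inherited microcephaly, had 1422 against 937 (75.2 against 49.7 CPM, ratio 1.51, 1.39 to 1.64).

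The remaining spindle genes were less than 1.5-fold higher. Ckap2l, known as radmis in neural progenitors, had a ratio of 1.38 (1.29 to 1.49), Dlgap5 1.38 (1.23 to 1.55) and Tpx2, the activator of Aurora A, 1.34 (1.27 to 1.42). Tacc3 followed at 1.19 (1.12 to 1.27). Its partner on microtubules, the polymerase gene Ckap5, was the most read of the group and nearly equal, with 4526 against 4298 reads (239 against 228 CPM, ratio 1.05, 1.01 to 1.09).

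Chromosome structure genes had the highest group median, 0.73, with 4 of 7 at least 1.5-fold higher (background 4.22% of genes kept). Both SMC subunits of condensin, the ring that folds mitotic chromosomes, were among them. Smc4 had 2332 reads against 1233 (123 against 65.4 CPM, ratio 1.88, 1.76 to 2.02) and Smc2 2012 against 1141 (106 against 60.6 CPM, ratio 1.76, 1.63 to 1.89). Of the subunits specific to condensin I, Ncapg had 850 against 486 (44.9 against 25.8 CPM, ratio 1.74, 1.56 to 1.95) and Ncaph a ratio of 1.42 (1.31 to 1.55). Ncapd2 had 3537 against 3060 reads (187 against 162 CPM, ratio 1.15, 1.10 to 1.21), an interval apart from those of the other 4 subunits. Transcripts of Ncapg share 18.5% of their 50-base words with those of Lcorl, which was 1.23-fold higher itself (1.13 to 1.33).

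The proliferation marker Mki67 (Entrez 17345, chromosome 7, 135689784 to 135716450), which coats mitotic chromosomes, had 4775 reads against 2867 (252 against 152 CPM, ratio 1.66, 1.58 to 1.74). Top2a, which untangles sister chromatids, was the most read of the 60 genes with 6914 against 4870 (366 against 259 CPM, ratio 1.41, 1.36 to 1.47).

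Among the genes of anaphase and cytokinesis 7 of 8 were higher in the cKO library and 1 reached 1.5-fold (background 4.22% of genes kept, group median 0.50). Ect2, the exchange factor that activates RhoA at the cleavage site, had 1723 reads against 1106 (91.1 against 58.7 CPM, ratio 1.55, 1.44 to 1.68). Anln, a scaffold of the contractile ring, had a ratio of 1.51 (1.37 to 1.66), Prc1, the bundler of the central spindle, 1.42 (1.34 to 1.49) and the centralspindlin subunit gene Racgap1 1.29 (1.22 to 1.35). Cdc20, the activator of the anaphase-promoting complex, stood at 1.4998 (1.42 to 1.59) and its ubiquitin-conjugating enzyme gene Ube2c at 1.41 (1.32 to 1.51). Espl1, which encodes separase, the protease that cuts cohesin, had a ratio of 1.29996 (1.18 to 1.44). Of the 50-base words of Prc1 and Ube2c, 26.6% and 17.8% also occur in transcripts of other genes.

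Pttg1 (Entrez 30939, chromosome 11, 43420244 to 43427463), which encodes securin, the inhibitor of separase, was the exception. It had 531 reads in the cKO library against 667 (28.1 against 35.4 CPM, ratio 0.793, 0.706 to 0.890). Deposited TPM of Pttg1 gave the same direction, at 101 against 131. The securin transcript was therefore lower in the cKO library, where those of separase, Cdc20 and Ube2c were higher. No protein was measured.

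**Figure D3:**
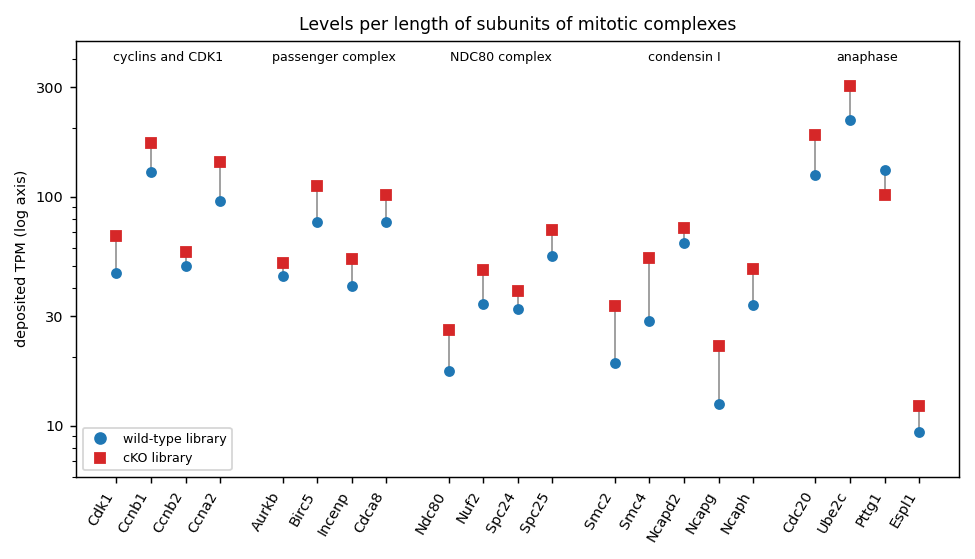
Deposited TPM (vertical log axis) of the subunits of 5 mitotic modules in the wild-type library (blue circles) and the cKO library (red squares), 1 library per group. The red square lies above the blue circle for each gene except Pttg1, and the SMC subunits and Ncapg of condensin show longer steps than Ncapd2.

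Levels per length can be compared between genes through the deposited TPM. Ube2c was the most abundant transcript of the 60 in both libraries (304 TPM in the cKO library, 217 in the wild-type library), followed by Cks2 (206 and 152). Pttg1 ranked 3 by TPM in the wild-type library and 13 in the cKO library. Knl1 (5.62 and 2.48) was the least abundant, and Cenpe (11.0 and 4.74) and Cenpf (11.1 and 6.19) were near it, so the 3 genes with high ratios in the outer kinetochore were among the rarest transcripts. The subunits of a complex were not equally abundant. Within the NDC80 complex TPM ran from 17.3 (Ndc80) to 54.9 (Spc25) in the wild-type library and from 26.2 to 71.3 in the cKO library. Within condensin I it ran from 12.5 (Ncapg) to 62.9 (Ncapd2) in the wild-type library, a spread of 5.04-fold, and from 22.4 to 72.7 in the cKO library, a spread of 3.25-fold. In the passenger complex the range was 40.6 to 77.8 and 51.6 to 111.

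The genes with the highest ratios had transcripts of low GC content. Across the 60 genes the log2 difference was smaller at higher GC content of the longest coding transcript (Pearson r -0.44, Spearman rho -0.49, across genes, which share both libraries and are not independent replicates). Across the 12435 kept genes with a GC value rho was -0.20. Among the 20 genes with the lowest GC (36.3% to 43.3%) 14 of 20 were at least 1.5-fold higher and the median was 0.66, where the 1874 kept genes of that range had a median of 0.10 and 6.46% were at least 1.5-fold higher. Among the next 20 (43.4% to 48.0%) 2 of 20 reached 1.5-fold, against 4.53% of the kept genes of that range. The medians were 0.47 and 0.03. Among the 20 of highest GC (48.3% to 56.1%) it was 2 of 20, against 3.70% of the kept genes of that range (medians 0.35 and -0.04).

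**Figure D4:**
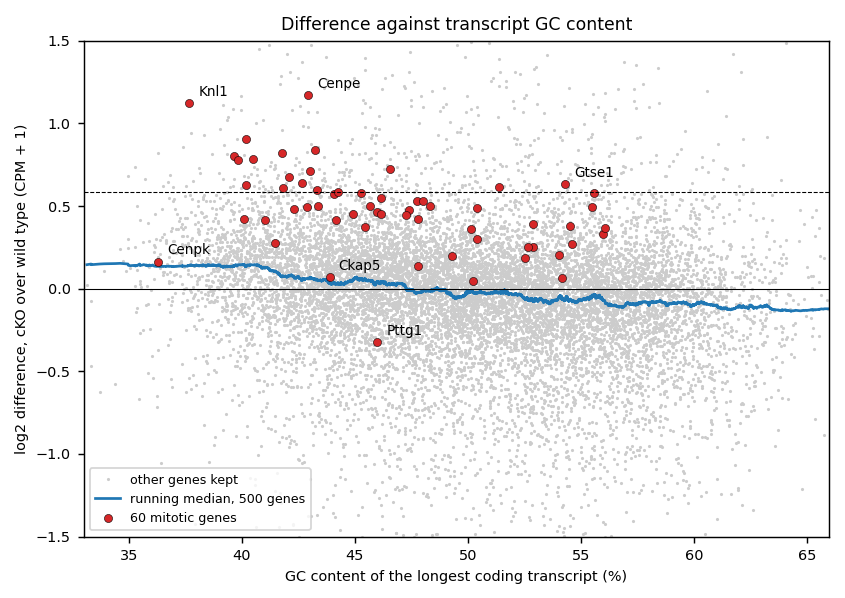
Log2 difference, cKO over wild type (vertical, CPM + 1), against GC content of the longest coding transcript (horizontal, percent) for the 60 genes (red) and the other genes kept (grey); the blue line is the running median of 500 genes and the dashed line 1.5-fold. The red points lie above the blue line at every GC content except Pttg1, and those beyond 1.5-fold gather at low GC.

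The condensin subunits line up along the same axis. Smc2, Smc4 and Ncapg had 39.7%, 40.2% and 39.8% GC, Ncaph 48.3% and Ncapd2 54.0%. With the running median over GC subtracted, their log2 differences were 0.67, 0.76, 0.63, 0.52 and 0.26, against 0.80, 0.90, 0.78, 0.50 and 0.20 before. Knl1, with 37.7% GC, went from 1.12 to 0.98 and Cenpe, with 42.9%, from 1.17 to 1.11. Gtse1 (54.3% GC) and Aurka (51.4%) were at least 1.5-fold higher despite a high GC content. With that trend removed, 15 of 60 genes were at least 1.5-fold higher, 59 lay above 0 and the median was 0.45. The longer transcripts also had the larger differences among the 60 genes (r 0.40, rho 0.34 with log2 length), whereas rho was 0.05 over all genes kept. The longest coding transcript need not be the main one read. In the wild-type library Mad2l1, given 7557 bases, had 57.1 CPM and 64.35 TPM. Aurka, given 1905 bases, had 42.6 CPM and 43.2 TPM there, so the deposited TPM used a shorter length for Mad2l1. What lies behind the relations with GC and length was not tested.

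Lists of further cell cycle genes, not picked gene by gene for their values but written with earlier results known, were compared in the same way. Of all genes kept, 47.8% lay above 0 and 4.22% were at least 1.5-fold higher. The 12 mitotic kinesin genes were all above 0 with 3 at least 1.5-fold higher (median 0.44), led by Kif20b (518 against 241 reads, ratio 2.14, 1.83 to 2.51), Kif18a (1.94, 1.74 to 2.17) and Kif11 (1.52, 1.43 to 1.62). Of 41 S phase genes 39 lay above 0 and 2 reached 1.5-fold (median 0.36), which were Ccne2 (1.81, 1.58 to 2.08) and Pola1 (1.69, 1.5005 to 1.90). That number at 1.5-fold is near the background share. Among 29 other kinetochore and checkpoint genes 27 lay above 0 and 3 reached 1.5-fold (median 0.34), which were Spdl1 (1.80, 1.44 to 2.25), Cdca2 (1.54, 1.40 to 1.71) and Kntc1 (1.55, 1.36 to 1.77). No test of the difference between these lists and the 60 genes was possible with 1 library per group.

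The other lists lay nearer to equal. At most 1 gene in each was at least 1.5-fold higher, where 4.22% of all genes kept were. Counts this small do not set a list apart. The 17 genes of the anaphase-promoting complex and its regulators had 9 above 0, 0 at least 1.5-fold apart and a median of 0.01. Of 13 cohesin genes 12 lay above 0 (median 0.28), and only the cohesin acetyltransferase gene Esco2 reached 1.5-fold (523 against 262 reads, ratio 1.99, 1.71 to 2.32). Of 3 condensin II genes (median 0.06) Ncapg2 reached it (1.59, 1.47 to 1.71), while Ncapd3 stood at 1.02 (0.918 to 1.13) and Ncaph2 at 1.04 (0.997 to 1.09). Of 21 centrosome and augmin genes 19 lay above 0 and 1 reached 1.5-fold, Haus6 (1.53, 1.37 to 1.71), with a median of 0.24. Of 13 other cytokinesis genes 11 lay above 0 (median 0.25), and Depdc1a reached 1.5-fold (1.71, 1.48 to 1.97).

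Regulators of these genes lay mostly on the same side. Of 30 regulators of mitotic entry and cell cycle transcription 26 lay above 0 and 4 were at least 1.5-fold higher (median 0.24). Of all genes kept, 47.8% lay above 0 and 4.22% were at least 1.5-fold higher. Lin9, a MuvB subunit, had 492 reads against 281 (ratio 1.74, 1.503 to 2.03) and Mybl2, which encodes B-MYB, 997 against 634 (1.57, 1.42 to 1.73). The other MuvB subunit genes were nearer to equal. Lin54 had a ratio of 1.29 (1.15 to 1.45), Rbbp4 1.12 (1.09 to 1.15), Lin37 1.08 (0.913 to 1.27) and Lin52 0.861 (0.729 to 1.02). Mastl, the Greatwall kinase that keeps mitotic phosphatases off, had 426 against 263 (1.61, 1.38 to 1.89). Foxm1, described above, had a smaller ratio than either Lin9 or Mybl2.

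**Figure D5:**
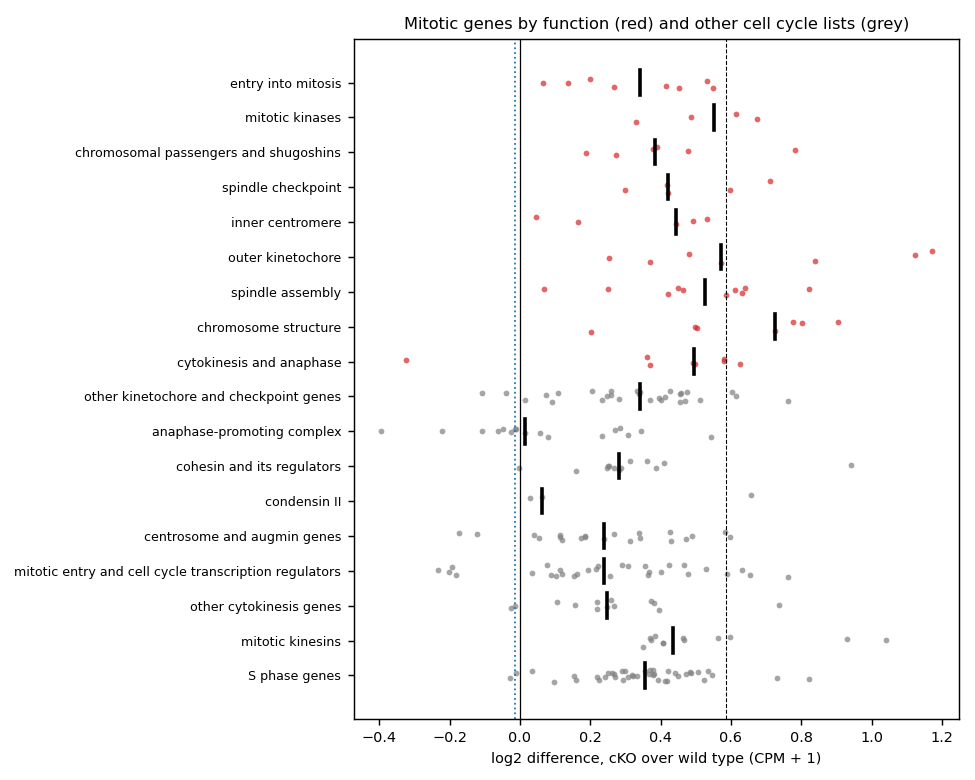
Log2 difference, cKO over wild type (horizontal, CPM + 1), of each gene in the 9 function groups of the 60 genes (red) and in 9 further lists (grey); black bars are list medians, the dashed line marks 1.5-fold and the blue dotted line the median of all genes kept. The medians of the red groups lie between 0.34 and 0.73, that of the anaphase-promoting complex at 0.01.

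Most markers of the oligodendrocyte lineage, astrocytes and neurons had fewer reads in the cKO library. All 5 oligodendrocyte lineage markers (Pdgfra, Sox10, Mbp, Gpr17, Bcas1) were at least 1.5-fold lower there (background 10.2% of genes kept). Their summed level was 37.3 against 894 CPM. All 5 astrocyte markers (Gfap, Aqp4, S100b, Aldh1l1, Slc1a3) were at least 1.5-fold lower too, with a summed level of 1737 against 3317 CPM. Of 5 neuronal markers 4 had fewer reads in the cKO library (518 against 645 CPM summed), and Stmn2 was below the filter. The exception was Rbfox3, with 20 against 19 reads. Dcx, a marker of young neurons, was the 1 neuronal marker at least 1.5-fold lower, with 80 against 824 reads (ratio 0.0967, 0.0759 to 0.122). Most of the neuronal sum came from Map2 (495 against 579 CPM). Of 7 stem cell markers 1, Vim, was at least 1.5-fold higher (background 4.22%) and 2, Sox9 and Fabp7, lower. Sox2 was equal within counting error (7633 against 7659 reads). Nes was higher by less than 1.5-fold (14759 against 10717 reads, ratio 1.37, 1.34 to 1.41). Pax6 had a ratio of 0.883 (0.767 to 1.02) and Msi1 0.904 (0.833 to 0.981). The summed level of the 7 was 7272 against 5965 CPM, with Vim the largest part (4578 against 2716 CPM). The 4 microglia markers listed had 0 to 5 reads in either library and the blood marker Alas2 1 in each, so these transcripts were at or near 0. Aif1, Hbb-bs and Hba-a1 were not found by symbol, so the statement on blood rests on Alas2 alone. Of the endothelial markers Kdr had 64 against 38 reads and Pecam1 8 against 3. The part of these other cell types in the levels of the mitotic genes was not tested.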

How the data were processed

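Total RNA was sequenced in 1 library per genotype label. Reads were placed on GRCm38.p6 according to the submitters' processing notes. The sources used here do not say how reads were aligned and counted, or with which annotation and strand setting. The deposited table holds, per the file headers, estimated counts of reads per gene, TPM, FPKM and a normalized read count (a signal scaled by 1 constant per library). FPKM values were not used.

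Estimated counts were rounded to whole reads and divided by column totals (18912683 and 18839079) to give CPM. A gene was kept at 1 CPM or more in at least 1 library (12618 of 15953 genes). The difference is log2 of CPM + 1, cKO over wild type. Ratios are of CPM, with 95% exact conditional binomial (Clopper-Pearson) intervals. Since the reads carry no molecular identifiers, intervals cover counting error at most. No test was made, since each group had 1 library. The functions were tested on simulated data. TMM factors came from edgeR 4.0.16, other values from Python 3.11.15, numpy 2.4.6, scipy 1.17.1 and pandas 2.3.3.

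GC content and length are those of the longest coding transcript of GENCODE M21, a GRCm38 annotation. Sequence sharing is the percentage of 50-base words of that transcript found, on either strand, in transcripts of other genes. Coordinates and promoters are from RefSeq, GRCm38.p6. The genes, function groups, further lists and markers were chosen with earlier results of these data known. A few genes of the further lists and markers are not reported here and enter none of their counts. The rule named all 60 genes, with reads in both libraries for 7 anchor genes, the extremes of each function group and genes at least 1.5-fold apart, and up to 3 genes per direction of each further list. The other MuvB subunit genes were named beside Lin9. Alternatives varied the added value, the scaling, the deposited unit, the filter, and trends over GC and length.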

Additional observations from a re-analysis of the deposited data

How the results depend on the processing

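Under 10 other settings (added value, scaling, unit, filter, GC, length) 59 of the 60 genes stayed above 0 in every one and Pttg1 below 0 (log2 -0.37 to -0.29), no gene was at least 1.5-fold lower, and the median ran from 0.44 to 0.51. The number at least 1.5-fold higher ran from 14 (5 CPM added) to 21 (TMM, median of ratios or the deposited normalized read count). The share of all genes kept that reached 1.5-fold moved too, from 2.41% (5 CPM added) to 4.91% (0.5 CPM added). In all of these settings 13 genes reached it: Cenpe, Knl1, Cenpf, Smc4, Smc2, Ncapg, Sgo2a, Hmmr, Mki67, Ttk, Ckap2, Gtse1 and Plk4. The median of the chromosome structure group went from 0.73 to 0.63 with the GC trend removed. Further settings were added after the data were seen. Thresholds of 1.3-fold and 2-fold gave 41 and 2 genes (background 10.2% and 1.25% of genes kept). The ratio with nothing added gave 20 at 1.5-fold, for which the share over all genes was not computed. Over 10% of the 50-base words of 9 genes occur in other genes' transcripts: Ccna2, Ccnb1, Cks2, Cdc20, Ncapg, Plk1, Prc1, Sgo2a and Ube2c. Leaving these 9 out gave 16 of 51 at least 1.5-fold higher (background 4.22%), with a median of 0.48. No paired analysis was possible because each group had 1 library, and for the same reason none could be left out. Counting error limits Cenpk most.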
